A study of Mus musculus with 6 samples.

Results

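The genes of the SOCS family and of the tyrosine phosphatases PTP1B and TC-PTP, which restrain cytokine signalling through Janus kinases (JAKs) and STAT transcription factors, were followed in mouse macrophages given interferon-gamma (IFN-γ). The members were chosen by gene name, though with earlier results of these data known. They were Cish, Socs1 to Socs7, Ptpn1 and Ptpn2, or 10 of 36706 genes and other transcribed features listed. All 10 were listed in every library, and all 10 passed the filter on low counts that left 12968 genes for the test. The cells were bone marrow-derived macrophages of genotype WT, which are bone marrow cells grown into macrophages in wells with the growth factor M-CSF. They were left untreated (3 libraries) or given IFN-γ (3 libraries), and the labels give 3 h for both groups. The sources used here do not give the dose of IFN-γ or the sex and age of the mice. The stated aim of the series was the mechanism by which IFN-γ induces ACOD1, the itaconate-making enzyme.

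IFN-γ binds a receptor whose chains carry the kinases JAK1 and JAK2. These phosphorylate the receptor, and STAT proteins that dock there enter the nucleus and switch on target genes, many of them at sites known as GAS elements. SOCS proteins form a feedback loop on this pathway. Each carries an SH2 domain, which binds phosphotyrosine, and a SOCS box, which recruits a ubiquitin ligase built on elongins B and C and a cullin. SOCS1 and SOCS3 also hold a short kinase inhibitory region that blocks JAKs directly. CISH and SOCS2 act mainly on receptors that signal through STAT5, and SOCS4 to SOCS7 have long N-terminal regions and are less well understood. PTP1B (Ptpn1) sits on the endoplasmic reticulum and dephosphorylates JAK2 and TYK2, while TC-PTP (Ptpn2) dephosphorylates JAK1 and JAK3.

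The sequences just upstream of the 3 members with the largest changes are shown because STATs and interferon regulatory factors act through such regions. RefSeq promoter windows on build GRCm38.p6, which reach from 250 bases before the gene start to 50 bases after it, were found for 5 of the 10 members (Socs1, Socs3, Socs4, Cish and Ptpn1). Each line runs 5′ to 3′ on the gene's strand and ends at the base before the start, except that of Cish, which goes on for 20 bases so that its matches are seen. Capitals mark matches to a GAS motif (TTCNNNGAA) or an interferon-stimulated response element (ISRE, GAAANNGAAA), searched on both strands.
Socs1 (chr16:10785537-10785786, minus strand): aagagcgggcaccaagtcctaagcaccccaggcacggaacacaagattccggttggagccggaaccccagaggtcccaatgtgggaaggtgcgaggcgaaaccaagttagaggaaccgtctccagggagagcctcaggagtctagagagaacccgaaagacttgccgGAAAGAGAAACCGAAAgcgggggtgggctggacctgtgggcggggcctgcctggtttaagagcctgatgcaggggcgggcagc
Socs3 (chr11:117969367-117969616, minus strand): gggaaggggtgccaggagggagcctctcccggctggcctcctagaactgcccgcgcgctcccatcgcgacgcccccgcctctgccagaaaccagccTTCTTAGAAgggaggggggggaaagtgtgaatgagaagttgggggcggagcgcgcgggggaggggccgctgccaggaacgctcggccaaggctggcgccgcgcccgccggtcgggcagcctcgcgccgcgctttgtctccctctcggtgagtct
Cish (chr9:107296409-107296678, plus strand): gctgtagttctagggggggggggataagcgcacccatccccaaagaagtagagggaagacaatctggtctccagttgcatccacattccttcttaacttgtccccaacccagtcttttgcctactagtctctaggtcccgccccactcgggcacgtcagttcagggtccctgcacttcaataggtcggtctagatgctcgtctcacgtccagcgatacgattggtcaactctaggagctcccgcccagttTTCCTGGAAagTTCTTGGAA
In Socs1 the capitals are 2 ISRE matches that overlap each other, GAAAGAGAAA and GAAACCGAAA, the first beginning 83 bases before the start. Socs3 held 1 GAS match, TTCTTAGAA, beginning 154 bases before the start. Cish held 2 GAS matches, TTCCTGGAA and TTCTTGGAA, which begin at bases 1 and 12 of the transcribed part in this gene model. The windows of Socs4 and Ptpn1 held no match to either motif, but that of Ptpn1 lies at a start site inside the listed span of the gene. Over 32851 windows of the same length, 8.3% held the GAS letters and 3.44% the ISRE letters. A looser motif for NF-κB (GGGANNNNCC), found in 20.73% of all windows, had a match in Socs3 and in Ptpn1. These matches describe letters in a window and are not evidence of binding.

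The libraries held between 28133342 and 34233607 counts. Values are given as CPM, which are counts relative to the TMM-scaled library size, and on this scale 3 counts in 1 library correspond to between 0.0890 and 0.101 CPM; this limit covers counting error only. Groups were compared with edgeR's quasi-likelihood test, with Benjamini-Hochberg adjustment over all 12968 genes and a threshold of 0.05. A gene past it is said to have risen or fallen. The labels do not say whether replicates are separate mice or cultures, so p-values speak only for the spread among these 6 libraries, which may be technical. All 9 macrophage markers examined passed the filter and 4 were higher with IFN-γ, with a summed level of 19902 to 21529 CPM untreated and 21224 to 22568 CPM with IFN-γ. Neutrophil markers (6 of 7 tested, 3 higher with IFN-γ) summed to 78.6 to 103 and 134 to 148 CPM, and dendritic cell markers (5 of 5 tested, 2 higher) to 1.72 to 2.16 and 5.37 to 5.96 CPM. Markers of mast cells, basophils and eosinophils (1 of 5 tested, and higher) summed to 2.19 to 2.58 and 3.88 to 4.53 CPM, and stromal and endothelial markers (1 of 5 tested, not called) to 0.609 to 1.19 and 1.32 to 1.69 CPM. B cell markers (1 of 5 tested, not called) were lower with IFN-γ in their sum, at 3.88 to 4.97 CPM untreated and 3.42 to 3.54 CPM with IFN-γ. T and NK cell markers summed to at most 2.43 CPM in any library, and erythroid markers to at most 0.237 CPM. The part of these other cells in the results was not tested, and in bulk samples a change in cell number and a change in RNA per cell cannot be told apart.

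Of the 10 members, 6 rose with IFN-γ and none fell, against 19.6% of all tested genes that rose and 16.8% that fell. The 6 were Socs1, Socs3, Cish, Ptpn2, Socs7 and Ptpn1, in order of fold change. Socs1 and Socs3 rose by factors of 30.7 and 23.3, Cish by 5.78, Ptpn2 by 1.76, Socs7 by 1.64 and Ptpn1 by 1.19. In CPM, every IFN-γ library lay above every untreated one for these 6 members, as it did for 25.9% of all tested genes. DESeq2 and limma-voom also put 6 members higher and 0 lower, and at an unadjusted p under 0.05 edgeR put 1 lower, Socs6. The median log2 fold change of the members was 0.48, against -0.014 for all tested genes. Rises of at least 2-fold were seen in 3 of the 10 members, against 6.17% of all tested genes.

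**Figure D1:**
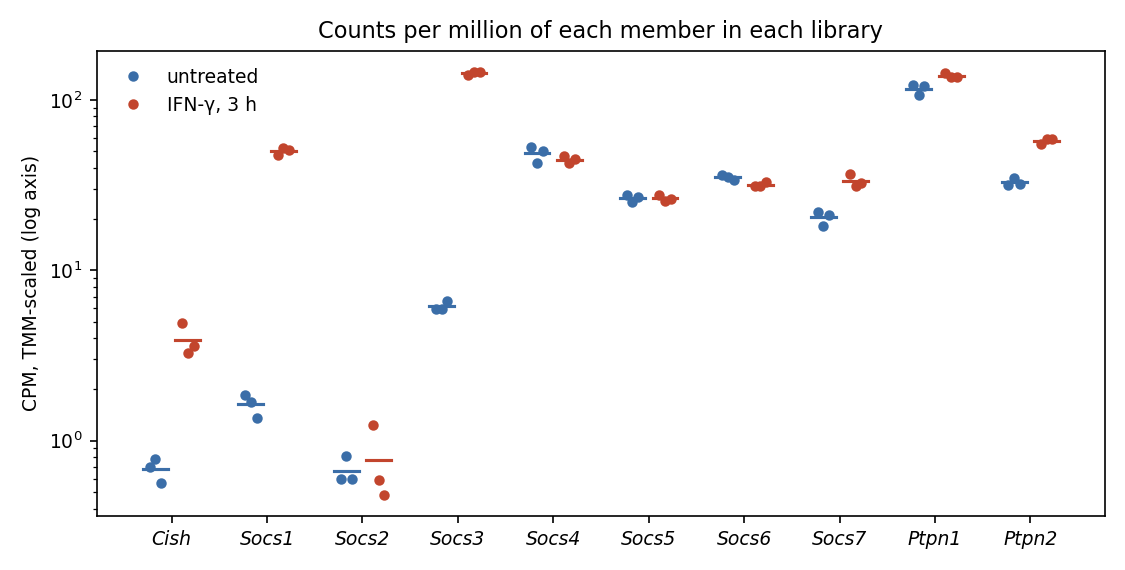
CPM of the 10 members (x axis) in each library, on a log axis; points are libraries (3 untreated in blue, 3 given IFN-γ in red) and horizontal bars are group means. Socs1, Socs3 and Cish lie far above their untreated libraries, from means of 1.64, 6.16 and 0.680 CPM to 50.3, 143.9 and 3.92 CPM, while the points of Socs2, Socs4 and Socs5 overlap between groups.

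Socs1 encodes the SOCS protein with the strongest known action on the IFN-γ receptor and JAK1 and JAK2. The tables place it on chromosome 16, minus strand, from 10601672 to 10603400, with exons of 1340 bases in all. In replicate order, the untreated libraries had 56, 50 and 46 counts and the IFN-γ libraries 1550, 1611 and 1571, or 1.86, 1.69 and 1.36 CPM against 47.75, 52.5 and 50.6 CPM. Every IFN-γ library therefore lay far above every untreated one, and the spread inside either group was small beside the gap. The log2 fold change was 4.94 ± 0.11 (SE), with a 95% interval of 4.69 to 5.19 and an adjusted p of 1.83e-08. This was the 40th largest rise among the 12968 genes. At most 56 counts stood behind each untreated value, so the untreated level is the less precise side of this fold.

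Socs3, whose protein is best known for blocking signalling by gp130, the shared receptor chain of the interleukin-6 family, lies on chromosome 11, minus strand, from 117856905 to 117860192. Its counts were 179, 174 and 224 untreated and 4553, 4469 and 4526 with IFN-γ. In CPM these were 5.95, 5.89 and 6.64 against 140.3, 145.5 and 145.8, so the IFN-γ libraries lay close together and stood clear of the untreated ones. In the fit the log2 fold change was 4.54 ± 0.07, with an interval of 4.38 to 4.71 and an adjusted p of 4.44e-09, the 48th largest rise. The intervals of Socs1 and Socs3 overlap, and the difference between these folds was not tested. None of the 50-base stretches in the transcripts of either gene occurred in another gene, and no other listed gene overlapped their span.

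Cish, the founding member of the family, lies on chromosome 9, plus strand, from 107173858 to 107179983, and its protein binds receptors that signal through STAT5. The counts were low, at 21, 23 and 19 untreated and 159, 101 and 111 with IFN-γ. In CPM this was 0.698, 0.778 and 0.563 against 4.90, 3.29 and 3.58. The groups did not overlap, although the IFN-γ libraries were more scattered than for Socs1 or Socs3, with replicate 1 the highest. Cish had a log2 fold change of 2.53 ± 0.22, with an interval of 2.03 to 3.03 and an adjusted p of 4.72e-05. Of its 50-base stretches, 9.35% also occurred in another gene, most often Gm17041. That gene is not listed in the tables, so some reads of Cish could come from there.

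Socs2, whose protein restrains growth hormone receptor signalling, is on chromosome 10, minus strand, from 95219765 to 95253176. It was the least abundant member, with 18, 24 and 20 counts untreated and 40, 18 and 15 with IFN-γ. In IFN-γ replicate 1 it stood at 1.23 CPM, above all untreated libraries, which held 0.593 to 0.812 CPM, while IFN-γ replicates 2 and 3 were at 0.586 and 0.483 CPM, below them. The log2 fold change of 0.21 ± 0.37 (adjusted p = 0.701) had an interval of -0.65 to 1.07, so neither a small fall nor a rise of 2-fold could be distinguished from no change at this depth. Without IFN-γ replicate 1 the value was -0.33 (adjusted p = 0.446). The same library was also the highest for Cish. Of the 50-base stretches of Socs2, 4.58% also occurred in another gene, most often Gm9847, so some of its few reads could come from there.

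**Figure D2:**
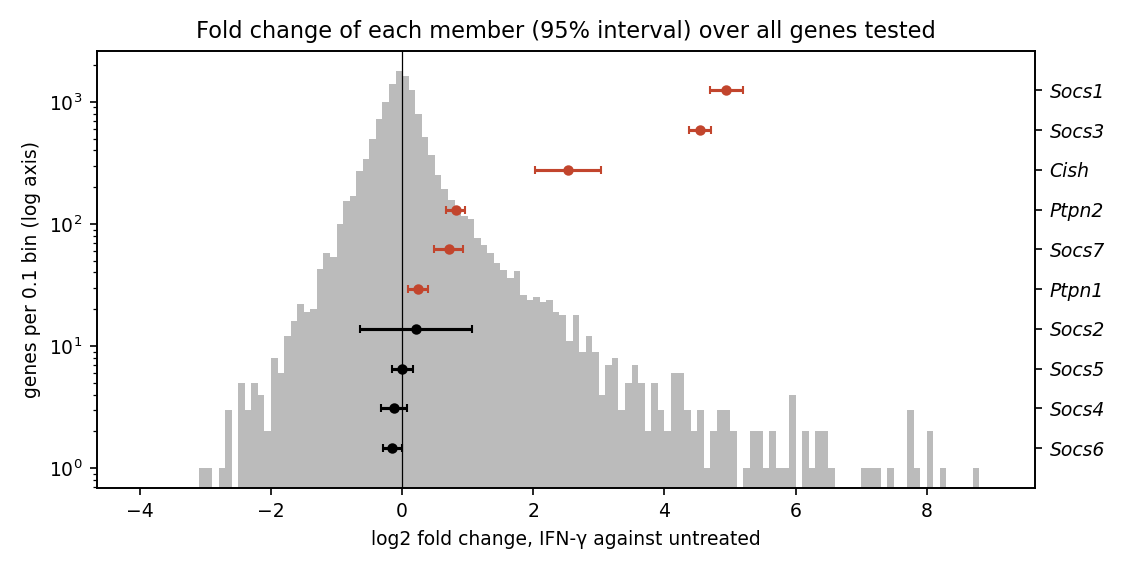
Log2 fold change of IFN-γ against untreated macrophages (x axis) for the 10 members (points with 95% intervals, right axis; red where the gene rose, black where it was not called), drawn over a histogram of all 12968 tested genes (grey, left axis, log scale). Socs1, Socs3 and Cish sit in the thin right tail, at 4.94, 4.54 and 2.53, and the other 7 members sit within the bulk of genes.

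Among the members with long N-terminal regions only Socs7 passed the test. Socs7, on chromosome 11, plus strand, from 97253044 to 97289368, encodes a protein that binds signalling adaptors as well as STATs. It had 22.0, 18.3 and 21.2 CPM untreated and 36.9, 31.3 and 32.5 CPM with IFN-γ, with no overlap between groups. The log2 fold change was 0.71 ± 0.10, or 1.64-fold (interval 1.41 to 1.91), with an adjusted p of 0.000644. In both groups its replicate 2 was the lowest.

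Socs4, on chromosome 14, and Socs5, on chromosome 17, encode close relatives that act on the epidermal growth factor receptor. Socs4 had 53.0, 42.8 and 49.75 CPM untreated and 46.7, 42.4 and 44.7 CPM with IFN-γ, so the groups overlapped through untreated replicate 2. Its log2 fold change was -0.12 ± 0.09 (adjusted p = 0.318; interval -0.32 to 0.08). Without untreated replicate 2 it was -0.20 with an adjusted p of 0.0172, and it was also called lower with upper quartile or total count scaling (-0.27 and -0.29). Both scalings also moved the median of all genes, from -0.014 to -0.161 and -0.184. Socs5 had 27.5, 25.04 and 26.8 CPM untreated and 27.8, 25.5 and 26.2 CPM with IFN-γ, nearly the same range. Its fold was 1.00 with an interval of 0.898 to 1.12 (adjusted p = 0.984). The sign of its value changed between settings, from -0.17 to 0.03 on the log2 scale.

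Socs6, on chromosome 18, minus strand, from 88883293 to 88912623, encodes a regulator of receptor tyrosine kinases such as KIT. It had 36.1, 35.3 and 33.98 CPM untreated and 31.1, 31.0 and 32.955 CPM with IFN-γ. Every IFN-γ library was below every untreated one, as in 24.2% of all tested genes, but the gap was small. Its log2 fold change of -0.15 ± 0.06 did not pass the threshold (adjusted p = 0.0914 in edgeR). It did pass with upper quartile scaling (-0.29, adjusted p = 0.00509), total count scaling (-0.32, adjusted p = 0.00389) and the stricter filter on low counts (-0.18, adjusted p = 0.0462). The first of these shifted the median of all genes to -0.161 and the second to -0.184, so relative to the other genes the value of Socs6 moved little. Of the 50-base stretches of Socs6, 6.14% also occurred in another gene, most often Gm9449, so some of its reads could come from there.

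Both phosphatase genes rose in the main analysis, with a larger estimate for Ptpn2. This gene, on chromosome 18, minus strand, from 67798571 to 67857697, had 954, 1023 and 1076 counts untreated and 1779, 1818 and 1831 with IFN-γ. These were 31.7, 34.6 and 31.9 CPM against 54.8, 59.2 and 59.0 CPM, with the groups well apart. For Ptpn2 the log2 fold change was 0.82 ± 0.06, or 1.76-fold (interval 1.59 to 1.95), with an adjusted p of 2.82e-05. Ptpn1, on chromosome 2, plus strand, from 167772670 to 167821305, had the higher level, at 121.4, 106.9 and 120.4 CPM untreated and 142.7, 136.2 and 135.2 CPM with IFN-γ. In CPM the groups did not overlap, while in the deposited TPM they did (36.0 to 46.5 untreated and 44.7 to 50.2 with IFN-γ). For Ptpn1 the log2 fold change was only 0.25 ± 0.07, or 1.19-fold (interval 1.07 to 1.32), with an adjusted p of 0.0189. That call was lost with upper quartile scaling (0.10, adjusted p = 0.213), with total counts (0.08, adjusted p = 0.437) and without IFN-γ replicate 1, 2 or 3 (adjusted p = 0.0896, 0.0624 and 0.0522). Upper quartile and total count scaling also moved the median of all genes, from -0.014 to -0.161 and -0.184. The intervals of Ptpn2 and Ptpn1 do not overlap, and the difference between the folds was not tested as such. The ratio of Ptpn2 to Ptpn1 in TPM was 0.183, 0.227 and 0.186 untreated and 0.2695, 0.305 and 0.306 with IFN-γ.

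**Figure D3:**
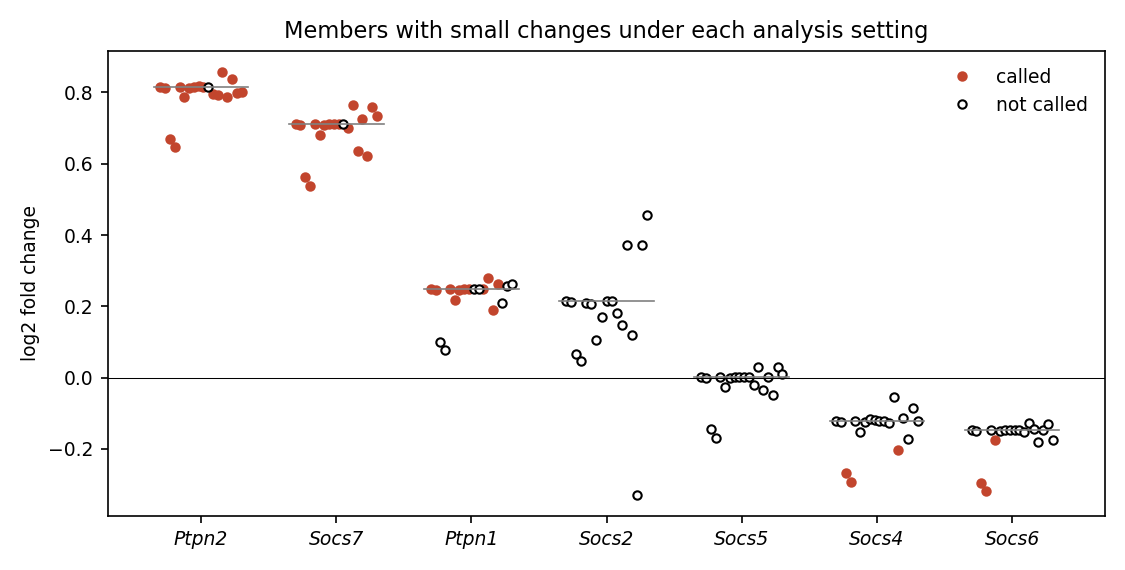
Log2 fold change of the 7 members with small changes (x axis) under the main analysis and each alternative setting or left-out library; red points passed the threshold, open points did not, and the grey line is the main value. Ptpn2 runs from 0.65 to 0.86 and Socs7 from 0.54 to 0.76, and both lose their call only in the test against 2-fold. Ptpn1, Socs4 and Socs6 move across the threshold, and Socs2 spreads from -0.33 to 0.46.

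Levels of different genes can be compared only per length, and for this the deposited TPM (counts divided by exon length and scaled to a common total) were used, without a test. In untreated macrophages the order by mean TPM was Ptpn1 (42.9 ± 6.01, SD, n = 3), Socs4 (15.4 ± 2.67), Socs6 (12.2 ± 0.923), Ptpn2 (8.44 ± 0.228), Socs7 (5.95 ± 0.973), Socs5 (5.82 ± 0.688), Socs3 (4.92 ± 0.620), Socs1 (2.66 ± 0.433), Cish (0.343 ± 0.0382) and Socs2 (0.110 ± 0.0117). The neighbours Socs4 and Socs6, Socs7 and Socs5, and Socs5 and Socs3 overlapped in their libraries. Socs3 and Socs1 thus ranked 7th and 8th of 10 at rest. With IFN-γ the order began with Socs3 (105.4 ± 1.34 TPM) and Socs1 (75.1 ± 1.87), followed by Ptpn1 (46.8 ± 3.01), Ptpn2 (13.7 ± 0.159), Socs4 (12.98 ± 1.03), Socs6 (10.1 ± 0.315), Socs7 (8.93 ± 1.10), Socs5 (5.35 ± 0.417), Cish (1.84 ± 0.469) and Socs2 (0.119 ± 0.0674). Here Ptpn2 and Socs4 overlapped, as did Socs6 and Socs7. Despite its rise, Cish stayed 9th in both groups.

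The 8 SOCS-family genes together held 51.9, 40.7 and 49.6 TPM in untreated replicates 1, 2 and 3 and 224.2, 219.05 and 216.3 TPM with IFN-γ, a ratio of means of 4.64. Cish and Socs1 to Socs3 made 7.29 to 8.55 TPM of the untreated sum and 179.8 to 183.9 TPM of the sum with IFN-γ. Over the same libraries Socs4 to Socs7 held 33.4 to 43.3 TPM untreated and 35.1 to 40.5 TPM with IFN-γ, which overlap, so nearly all of the added TPM lay in the first group. Socs3 went from 10.4% ± 0.837 to 48.0% ± 0.260 of the family's TPM, and Socs1 from 5.64% ± 0.837 to 34.2% ± 1.08 (SD, n = 3). Socs4, the leading member at rest with 32.4% ± 1.72, held 5.90% ± 0.383 with IFN-γ, and Socs6 went from 25.8% ± 1.44 to 4.59% ± 0.145. Shares add up to the whole, so a smaller share is not a fall of the gene: Socs7 rose in CPM while its share went from 12.5% ± 0.568 to 4.06% ± 0.431. The ratio of Socs1 to Socs3 in TPM was 0.638, 0.586 and 0.419 untreated and 0.694, 0.735 and 0.708 with IFN-γ.

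**Figure D4:**
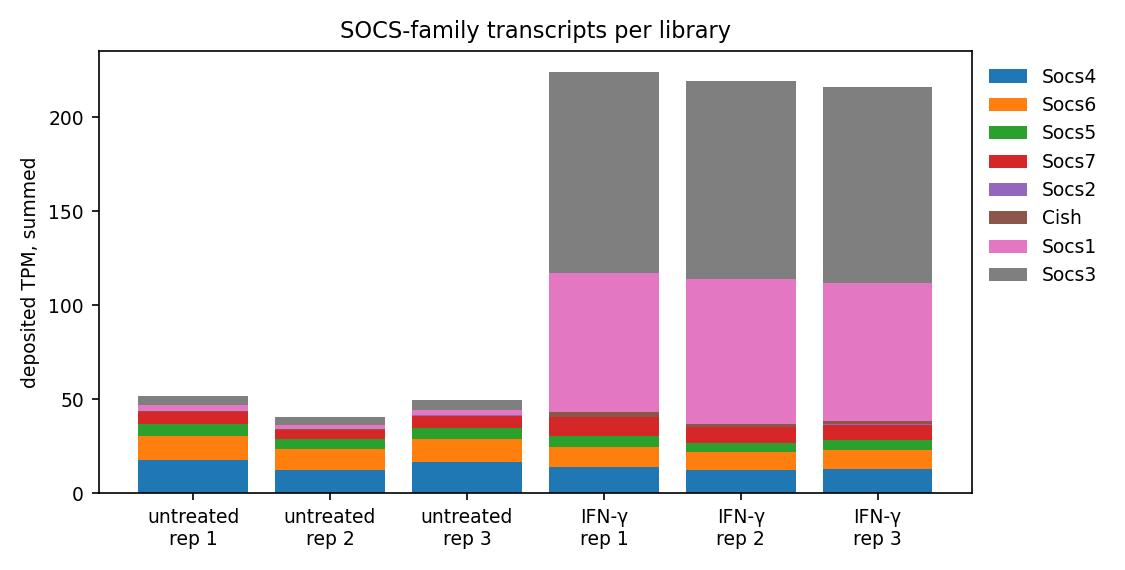
Deposited TPM of the 8 SOCS-family genes stacked for each library (x axis: untreated replicates 1 to 3 and IFN-γ replicates 1 to 3; y axis from 0, summed TPM). The sum goes from between 40.7 and 51.9 TPM to between 216.3 and 224.2 TPM, and the added height is nearly all Socs1 and Socs3.

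Transcripts of the pathway that these genes restrain changed as well. Of 13 genes of the IFN-γ receptor, JAKs and STATs, 11 rose and 1 fell, with a median log2 fold change of 0.63. The 84.6% that rose stands beside 19.6% of all tested genes that rose and 16.8% that fell. The median of all tested genes was -0.014. Stat3, which acts below gp130 and is held back by SOCS3, rose by 2.02 ± 0.08 on the log2 scale, and Stat2 by 1.82 ± 0.08. Jak2, a substrate of PTP1B and a target of SOCS1, rose by 1.79 ± 0.07. The gene that fell was Ifngr1, the ligand-binding receptor chain, at -0.35 ± 0.05, and Stat6, which acts in interleukin-4 signalling, was not called (-0.01 ± 0.06); both were named after their values were seen.

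Other genes that restrain JAK-STAT signalling were listed beside the members. Of 14 listed, 12 were tested, 4 rose and 1 fell, with a median of 0.11; the 33.3% of tested genes that rose stands beside 19.6% of all tested genes. Usp18, an enzyme that removes ISG15 and blocks the type I interferon receptor, rose by 1.38 ± 0.07 on the log2 scale. Ptprc, the receptor phosphatase CD45, rose by 0.95 ± 0.07, and Ptpn6, the phosphatase SHP-1 of blood cells, by 0.69 ± 0.06. Pias3, an inhibitor of STAT3, fell by 0.64 ± 0.09, from 19.6 ± 1.76 to 12.6 ± 0.537 CPM. Without untreated replicate 2, 3 genes of the list fell. The remaining gene that rose was Pias1 (0.35 ± 0.09), a SUMO ligase of the PIAS family named after its value was seen.

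The elongins and cullins are the partners through which the SOCS box marks proteins for breakdown. Of 7 genes of these complexes, 2 rose (28.6%, against 19.6% of all tested genes) and none fell, with a median of 0.02 and again 0 lower at an unadjusted p under 0.05, by DESeq2 and by limma-voom. Cul2, a cullin better known from the von Hippel-Lindau ligase, rose from 52.7 ± 0.922 to 92.0 ± 1.83 CPM (log2 fold change 0.80 ± 0.05). Arih2, a ligase that works with CUL5, was at 0.19 ± 0.06 and was not called in 14 of the other settings. Cul5, the cullin that SOCS proteins mainly use, had 40.5 ± 1.92 and 41.2 ± 1.06 CPM (log2 fold change 0.02 ± 0.06, adjusted p = 0.798 in edgeR) and was named after its value was seen.

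Of 27 other genes whose proteins carry a SOCS box, 17 were tested, and 5 rose and 3 fell, with a median of 0.08. The 29.4% that rose stands beside 19.6% of all tested genes that rose and 16.8% that fell. Asb13, of the ankyrin-repeat group, rose by 1.05 ± 0.08. Rab40c, a small GTPase with a SOCS box, fell by 0.74 ± 0.06 and Spsb4, of the SPRY-domain group, by 0.84 ± 0.11. Neurl2 fell by 0.65 ± 0.13, but 28.1% of its exon length overlaps Ctsa on the other strand, which had a mean of 26227 counts against 90.8, so its value is uncertain. With upper quartile scaling 2 of the list rose and 6 fell, and 2 or 3 rose without untreated replicate 1 or 3 or any 1 of the IFN-γ replicates. Of 15 other non-receptor tyrosine phosphatases, 11 were tested, and 3 rose and 2 fell, with a median of -0.01. The share of them that rose was 27.3%, beside the same background. After Ptpn6, Ptpn23 and Ptpn9 rose by 0.43 ± 0.13 and 0.25 ± 0.08, and Ptpn22, a brake on lymphocyte signalling, fell by 0.42 ± 0.07. The calls of Ptpn23 and Ptpn9 were both lost with upper quartile and total count scaling, the filter of 5 CPM, a threshold of 0.01, the test against 2-fold and without IFN-γ replicate 1, 2 or 3, and that of Ptpn9 also without untreated replicate 3. Without untreated replicate 2, 5 of these phosphatases rose and 4 fell; 1 rose without IFN-γ replicate 1 or 2, and 1 fell without IFN-γ replicate 2.

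Receptors and ligands that use JAKs were read from 2 further lists, against the same background of 19.6% of all tested genes that rose and 16.8% that fell. Of 26 receptor chains 21 were tested, and 13 rose and 1 fell, with a median of 0.31; none fell without IFN-γ replicate 2. Il12rb1 rose from 1.52 ± 0.197 to 27.5 ± 0.776 CPM (log2 fold change 4.18 ± 0.10), Il15ra by 3.45 ± 0.09, Il13ra1 by 2.35 ± 0.07 and Il21r by 1.49 ± 0.07. Il6st, which encodes gp130, was at 62.6 ± 15.5 and 67.5 ± 8.94 CPM (log2 fold change 0.11 ± 0.18, adjusted p = 0.682 in edgeR) and was named after its value was seen. Of 16 cytokines only 7 were tested, the other 9 being below the filter. Of the 7, 6 rose and none fell (none at an unadjusted p under 0.05, by DESeq2 or by limma-voom). Ifnb1, Il6 and Il12b, named after their values were seen, had means of 0.032, 0.237 and 0.228 CPM untreated. With IFN-γ they had 0.447, 0.648 and 0.499 CPM. Genes this low pass the filter mainly through the IFN-γ libraries, so the number that rose depends partly on the filter. Il27, a cytokine that signals through gp130, rose by 4.81 ± 0.16, Il15 by 2.46 ± 0.10 and Osm, the gene of oncostatin M, by 0.35 ± 0.08, which lost its call with upper quartile and total count scaling. Il27 overlaps Apobr on the other strand over 9.83% of its exons, and that gene had a mean of 5714 counts against 493.8.

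Feedback inhibitors of other inflammatory pathways were listed for comparison. Of 25 inhibitors of NF-κB and MAP kinase signalling, 23 were tested, 16 rose and 1 fell, and the median was 0.99. The 69.6% that rose stands beside 19.6% of all tested genes that rose and 16.8% that fell. Dusp10, a MAP kinase phosphatase, rose by 2.62 ± 0.12. Nfkbie and Nfkbiz, of the IκB family, rose by 2.12 ± 0.06 and 1.88 ± 0.06, and Tnfaip3, which encodes the ubiquitin editor A20, by 1.78 ± 0.08. None of these reached the rise of Socs1 or Socs3. The gene that fell was Dusp6, which acts on ERK (-0.72 ± 0.06), named after its value was seen; 2 fell without untreated replicate 2.

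**Figure D5:**
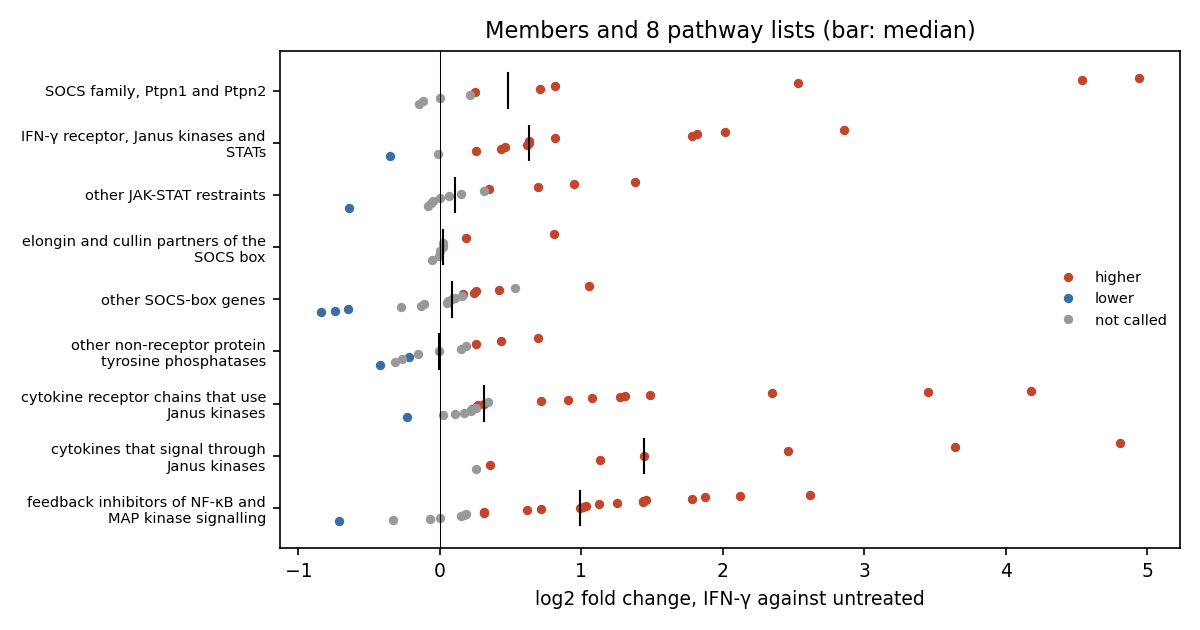
Log2 fold change of IFN-γ against untreated macrophages (x axis) for the 10 members (top row) and the tested genes of 8 pathway lists; each point is a gene, red where it rose, blue where it fell and grey where not called, and the black bar is the row's median. The members' median is 0.48 and their spread runs from -0.15 to 4.94, while the elongin and cullin row stays close to 0 apart from Cul2.

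Genes next to the inducible members were read for their own changes. Rmi2, a gene of DNA repair 49523 bases from Socs1, rose from 2.38 ± 0.249 to 5.84 ± 0.469 CPM (log2 fold change 1.30 ± 0.12), and Clec16a on the other side, 38930 bases away, rose by 0.55 ± 0.11. Pgs1, a gene of phospholipid synthesis 16313 bases from Socs3, rose by 1.06 ± 0.06, and Tha1 on the other side was not called (0.19 ± 0.09). Beside Cish, Mapkapk3 rose by 0.49 ± 0.06 and Hemk1 by 0.31 ± 0.09. The call of Hemk1 was lost in 9 of 16 other settings, among them upper quartile and total count scaling, DESeq2 and leaving out replicate 1 or 3 of the untreated libraries or replicate 2 or 3 of those given IFN-γ. Beside Socs2, Cradd fell by 0.35 ± 0.10, a call lost in DESeq2, at a threshold of 0.01, in the test against 2-fold, without untreated replicate 3 and without IFN-γ replicate 1, 2 or 3. Mrpl42, on the other side of Socs2, was at -0.12 ± 0.10 and was called only with total count scaling. Beside Socs1, Socs3 and Cish, each neighbour's change was smaller than that of the member.

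The genes with profiles most like those of Socs1 and Socs3 were found as the smallest distance in log2(CPM + 0.5) over the 6 libraries, relative to the untreated mean, among 9610 other genes of at least 5 CPM. For Socs1 they were Ifi47, Cd40, Igtp, Socs3 and Gbp8, at distances of 0.254 to 0.475 log2 units. For Socs3 they were Ch25h, Ifi47, Cd40, Il27 and Gm4951, at 0.233 to 0.383. Ifi47 and Igtp encode interferon-inducible GTPases, Gbp8 a guanylate-binding protein, Cd40 a co-stimulatory receptor and Ch25h the enzyme that makes 25-hydroxycholesterol. Cd40, on both lists, went from 7.998 ± 0.756 to 179.7 ± 4.30 CPM. With 2 groups, such a distance mainly compares the change between groups after 0.5 CPM is added. This addition shrinks the change of genes low in untreated libraries, so close profiles can differ in fitted fold. The log2 fold changes were 4.50 (Ifi47), 4.49 (Cd40), 4.71 (Igtp) and 5.41 (Gbp8), against 4.94 for Socs1 and 4.54 for Socs3. Those of Ch25h, Il27 and Gm4951 were 4.75, 4.81 and 4.31. Of the 50-base stretches, 18.1% of those of Gbp8 and 11.8% of those of Igtp occur in another gene.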

How the data were processed

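Per the labels' protocols, the RNA is a Trizol extract and the library kit was KAPA stranded mRNA. HISAT2 and mm10 are named in the submitters' processing notes; for the counter, its strand setting and its handling of reads with several matches: not given in the sources used here. Per the file headers, each deposited table has columns of counts, TPM and FPKM. The authors' counts are whole, unscaled numbers and were tested; the deposited TPM were used for levels between genes, and the deposited FPKM were used only in a check that recomputed both from counts and lengths to within 2.2e-13. Of 35270 symbols also in RefSeq GRCm38.p6, only 1.7% began and ended at the same bases, so table coordinates are printed with the build unnamed, and promoter coordinates are those of GRCm38.p6. For Socs1, Socs3, Socs4 and Cish the distance from the window's start site to the gene's far end equals the span in the tables. For Ptpn1 this distance was 47059 bases against a span of 48636, so its window lies at a start site inside the span.

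Counts were analysed with edgeR 4.0.16, limma 3.58.1 and DESeq2 1.42.0 in R 4.3.3, after filterByExpr (minimum count 10, minimum total 15) and TMM scaling, with glmQLFit and glmQLFTest, two-sided. Standard errors were obtained from the F statistic (the log2 fold change over its root), and intervals use its degrees of freedom at 95%. The code of the test was checked on simulated counts that gave every gene the same dispersion. The error rate of the test in these data was not tested. All pairs of replicates differed beyond sampling noise (chi-square 2.05 to 81.1 per degree of freedom). Figures used Python 3.11.15 and matplotlib 3.10.9. Members and lists were chosen with earlier results of these data known, so lists get counts and medians and no set test. The genes named are all members, the 4 most changed called genes of each list (mean of 1 CPM or more; the 2 most abundant where none was called), the nearest genes of at least 1 CPM beside Socs1, Socs3, Cish and Socs2, and the 5 closest profiles to Socs1 and to Socs3; others are said to be named after their values were seen, and 1 gene that the rule names is not reported here. Shared sequence was measured as 50-base stretches of GENCODE M21 transcripts found in another gene. The alternatives tried were DESeq2 and limma-voom; scaling by RLE, by the upper quartile and by total counts; no filter, or at least 5 CPM in 3 samples; a block for the replicate number; a test against 2-fold; a threshold of 0.01; an offset for exon length fitted per library by lowess (span 0.5); and leaving out each library.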

Additional observations from a re-analysis of the deposited data

How the results depend on the processing

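Socs1, Socs3 and Cish kept their direction and call in each of the settings and left-out libraries in which they were tested (Cish was removed by the filter of 5 CPM), with log2 fold changes of 4.77 to 5.04, 4.37 to 4.59 and 2.32 to 2.64. Ptpn2 and Socs7 did so in all but the test against 2-fold. Of the members, 6 were higher in the main analysis, 3 in the test against 2-fold and 5 to 6 with a library left out. None was lower in the main analysis, 2 were with upper quartile and 2 with total count scaling (Socs4 and Socs6), 1 with the filter of 5 CPM, and 0 to 1 with a library left out. Upper quartile and total count scaling moved the median of all genes to -0.161 and -0.184, and the share of called genes that were higher from 53.8% to 30.6% and 26.9%. Socs5 changed sign at values of -0.000285 (RLE), -0.145 (upper quartile), -0.169 (total counts), -0.027 (filter of 5 CPM), -0.000299 (DESeq2) and -0.019 (length trend removed), and ran from -0.048 to 0.031 with a library left out. Socs2 ran from -0.33 to 0.46 with a library left out, and neither was called in any setting; the cause was not tested.

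In the test against 2-fold, which asks for more, 4 receptor, JAK and STAT genes were higher and 0 lower, against 1 and 0 of the other restraints, 0 elongin and cullin genes higher, 0 and 0 of the other SOCS-box genes, 0 and 0 of the other phosphatases, 6 and 0 of the receptor chains, 3 cytokines higher, and 7 and 0 of the NF-κB and MAP kinase inhibitors. With upper quartile scaling 3 restraints were lower, 1 elongin or cullin gene higher, 2 SOCS-box genes higher and 6 lower, 1 phosphatase higher, and 2 NF-κB and MAP kinase inhibitors lower. With total counts the corresponding numbers were 2, 1, 1 and 6, 1, and 2. The elongin and cullin list had 1 gene higher with no filter, the filter of 5 CPM, DESeq2, the threshold of 0.01 and the length trend removed. The filter of 5 CPM, which tests fewer genes, left 1 phosphatase and 3 cytokines higher. At a threshold of 0.01, 2 SOCS-box genes and 1 phosphatase were higher and 0 receptor chains lower, and 5 phosphatases were higher with the length trend removed. With a library left out, the numbers higher and lower ran from 11 to 11 and 1 to 1 for the receptor, JAK and STAT genes, 3 to 4 and 1 to 3 for the restraints, 1 to 2 higher for elongins and cullins, 2 to 5 and 3 to 4 for SOCS-box genes, 1 to 5 and 1 to 4 for phosphatases, 12 to 15 and 0 to 1 for receptor chains, 5 to 7 higher for cytokines, and 14 to 17 and 1 to 2 for the inhibitors. The ratio of the summed SOCS-family TPM, 4.64, ran from 4.34 to 4.87 with a library left out and was 5.06 from TMM-scaled CPM per kilobase.

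Same-numbered libraries deviated from their group means with correlations of 0.574, 0.385 and -0.227 across genes. IFN-γ replicates 1 and 2 each correlated best with the untreated library of the same number. With 3 libraries per group these correlations cannot decide whether same-numbered libraries were paired, and this was not tested. With the replicate number as a block, 2723 genes were higher and 2327 lower, 1 elongin or cullin gene was higher, and 6 members were higher and 0 lower; IFN-γ replicate 3 correlated best with untreated replicate 2, not with its own number. Depth limits Socs2 and Cish most, with at most 40 counts of Socs2 and at most 23 untreated counts of Cish in a library.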
